A study of Homo sapiens with 12 samples.

Results

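The baseline messenger RNA profile of HK-2 cells was taken from the 6 arrays whose labels name a control sample, out of 12 arrays in the series. HK-2 is an established line of human proximal tubule epithelium, immortalised with the E6 and E7 genes of a papillomavirus, whose products act on the p53 and RB proteins. The control cells received a vehicle, whose identity is not given in the sources used here, for 24 h (3 arrays) or 48 h (3 arrays). They were treated as 1 set, and the 6 arrays of cells given a low dose of the compound labelled Aa were not used. All cells grew in an equal mix of DMEM and Ham's F12 with glucose at 5 mM, epidermal growth factor (EGF) at 10 ng/ml, hydrocortisone at 36 ng/ml, insulin and transferrin at 5 µg/ml each and selenite at 5 ng/ml. The medium also held GlutaMAX, a glutamine supplement. Treatment began at about 90% confluence. Replicates are named biological in the labels, which do not tell in what way the cultures were separate, and a single line stands for the cell type.

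The proximal tubule takes back most of the filtered glucose, amino acids, phosphate, bicarbonate and protein. It does so with apical transporters coupled to sodium, with the endocytic receptors megalin and cubilin in the brush border, and with a sodium pump in the basolateral membrane. It also takes up and secretes organic anions and cations, makes glucose, and burns fatty acids in many mitochondria. HK-2 cells are widely used to test compounds for toxicity to this segment.

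Levels are deposited log2 values, and a gene's level is the mean ± SD over the 6 arrays of its probe set with the highest mean. Probe sets bind with different affinity, so the order of genes below is an order of signals and not of RNA amounts. The table holds no detection calls, so a limit of 4 was used, and genes under it are called near background. Genes whose products are not looked for in kidney cells gave the lower end of the scale. The 135 measured olfactory receptor, taste receptor and keratin-associated protein genes had a median of 2.19 and a 95th percentile of 3.12. Of these, 3 lay above the limit, namely OR3A2 at 5.69, KRTAP5-8 at 4.92 and OR1J2 at 4.15. Of 19775 genes, 10792 reached the limit, which is 54.6%. These comprised 2482 low genes (4 to under 7), 5264 moderate genes (7 to under 10), 2714 high genes (10 to under 13) and 332 very high genes (13 and over), and 8983 genes were near background. Of all genes 42.0% were thus moderate or higher, 15.4% high or higher and 1.68% very high. The upper classes were smaller under other settings. With the median over a gene's probe sets 1461 genes were high and 177 very high. Without probe sets whose name ends in _s_at or _x_at, called shared here, these counts were 1586 and 123. The name ending does not by itself mean that a probe set matches another gene. Each array alone had 10770 to 10836 genes at or above the limit, 10577 genes were there on every array and 8721 on none.

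**Figure D1:**
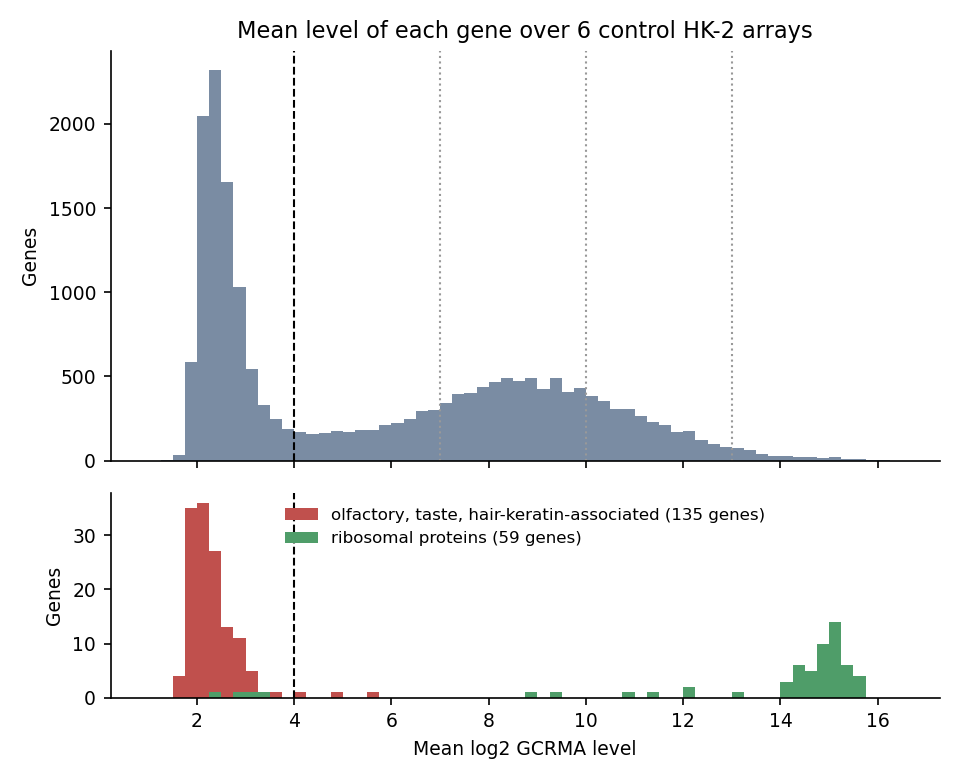
The upper histogram shows the number of genes (vertical axis) by mean log2 level over 6 control arrays (horizontal axis), with the limit of 4 dashed and the class borders at 7, 10 and 13 dotted. The lower histogram shows the 135 genes of the olfactory, taste and keratin-associated families, nearly all left of the limit, and the 59 ribosomal protein genes, most of them above 13.

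A near-background reading cannot be taken as a silent gene. RPLP2 encodes an acidic ribosomal stalk protein that every growing cell uses, and it read 2.83 ± 0.02, with both of its probe sets under the limit. RPL36A, another ribosomal protein gene, read 3.12 ± 0.16 from a single probe set. Of the 10523 genes with several probe sets, 4370 had some above and some below the limit. Low readings below are therefore given as near background and not as absence.

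The highest signals belonged to the translation machinery, the cytoskeleton, the mitochondrial genome and glycolysis. TMSB4X, which encodes the actin-binding peptide thymosin beta 4, ran from 16.06 through a median of 16.15 to 16.25. EEF1A1, the elongation factor that brings transfer RNA to the ribosome, ran from 15.79 through 15.92 to 16.03. ACTB (beta-actin) read 15.58 ± 0.12 and GAPDH (a glycolytic enzyme) 15.58 ± 0.04, so the 6 arrays lay close together for all 4 genes. Of the 20 highest genes, 10 encoded cytosolic ribosomal proteins and 5 lay on the mitochondrial genome. The mitochondrial ones were COX1 (15.83 ± 0.29), ATP6 (15.79 ± 0.07), COX2 (15.64 ± 0.04), ND4 (15.51 ± 0.06) and ND2 (15.42 ± 0.16), all subunits of oxidative phosphorylation complexes. COX3 (9.29 ± 0.23) and ND6 (9.29 ± 0.22), the remaining measured genes of that genome, read lower.

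Outside translation and mitochondria, the next highest genes were LDHB (lactate dehydrogenase B, 15.30 ± 0.11), UBB (ubiquitin, 15.25 ± 0.03), TPT1 (15.19 ± 0.10) and PPIA (cyclophilin A, 15.17 ± 0.04). Tubule and matrix genes followed within the same range. SPP1, which encodes the secreted phosphoprotein osteopontin, read 15.09 ± 0.09, and FN1, the matrix protein fibronectin, read 14.85 ± 0.03 with 7 of 7 probe sets above the limit. MYL6 (myosin light chain, 15.07 ± 0.13), FTL (ferritin light chain, 14.91 ± 0.06), S100A10 (14.91 ± 0.11) and LGALS1 (galectin 1, 14.80 ± 0.14) completed this tier. On the linear scale, the 100 highest genes carried 20.7% of the summed signal, the 59 measured ribosomal protein genes 10.3%, and all 8983 near-background genes together 0.352%.

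Ribosomal protein genes as a family had a median of 14.89, and 55 of 59 reached the limit, 49 of them as very high genes, a class that holds 1.68% of all genes. Without shared probe sets 25 of 36 reached the limit. Messenger RNAs of this family are known to begin with a C followed by a run of pyrimidines, the element through which growth signals control their translation. The first 20 bases from the RefSeq start site (GRCh38.p14), with the 20 bases before them, show this run in 4 of the highest genes and its absence in a further pair. Capitals mark the tract that starts at the first transcribed base.

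EEF1A1 (chr6:73521013-73521052, minus strand): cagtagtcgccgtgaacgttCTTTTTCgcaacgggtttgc
RPL41 (chr12:56116613-56116652, plus strand): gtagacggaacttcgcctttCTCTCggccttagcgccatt
RPS24 (chr10:78033843-78033882, plus strand): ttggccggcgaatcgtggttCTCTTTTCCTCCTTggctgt
RPS23 (chr5:82278335-82278374, minus strand): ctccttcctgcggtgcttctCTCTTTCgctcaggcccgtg
GAPDH (chr12:6535244-6535283, plus strand): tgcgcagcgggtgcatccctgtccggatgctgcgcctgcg
TMSB4X (chrX:12975090-12975129, plus strand): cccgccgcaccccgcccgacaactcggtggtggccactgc

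A tract, defined as a C at the start site followed by at least 4 pyrimidines, was present in 34 of the 51 ribosomal protein genes with a promoter in the RefSeq table, which is 66.7%. Over all 15381 genes with a promoter the share was 4.51%. It was 21.7% among very high genes and 12.7% among very high genes when the ribosomal protein genes were left out. The share was 3.26% among near-background genes, 3.53% among low, 5.00% among moderate and 5.83% among high genes. The start sites are those of the annotation, not measured in these cells.

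The proximal tubule genes were unevenly represented. Of 112 measured genes of apical and basolateral transport, endocytosis, brush border and tubule metabolism, 43 reached the limit (38.4%), with a median of 2.93. This lies under the 54.6% of all genes. Without shared probe sets the count was 27 of 92. Apical solute transporters were mostly near background, with 7 of 28 above the limit. SLC34A1, the main sodium-phosphate cotransporter, ran from 2.98 through 3.01 to 3.20, and SLC5A2, the glucose cotransporter SGLT2, from 2.58 through 2.62 to 2.94. AQP1, the water channel of this segment, ran from 2.39 through 2.42 to 2.43. All arrays were near background for these genes, as for SLC9A3, the sodium-proton exchanger NHE3, at 2.11 ± 0.01.

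The apical transport genes that did reach the limit serve the transport of amino acids, urate, phosphate and carnitine. SLC3A1, part of the cystine transporter, read 9.14 ± 0.69 from 1 of 3 probe sets. SLC7A9, the other part of that transporter, was the lowest gene of the apical list at 1.90. SLC17A3, a urate and phosphate transporter, read 8.42 ± 0.34. SLC6A20, which carries proline, read 7.66 ± 0.23 with 2 of 2 probe sets. SLC22A4 and SLC22A5, carriers of ergothioneine and carnitine, read 6.70 ± 0.41 and 5.96 ± 0.16.

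Basolateral transport was split, with 9 of 18 genes above the limit. ATP1B1, the beta subunit of the sodium pump, ran from 14.15 through 14.58 to 14.99. SLC4A4, the sodium-bicarbonate cotransporter of this membrane, ran from 10.83 through 11.69 to 12.69 and was above the limit in 5 of 5 probe sets. The potassium channels KCNJ15 (12.93 ± 0.25) and KCNJ16 (12.32 ± 0.41) led all 87 measured potassium channel genes, of which 19 reached the limit. SLCO4C1, an organic anion carrier, read 10.48 ± 0.40. The classical organic anion transporters SLC22A6 (OAT1, 2.27 ± 0.01) and SLC22A8 (OAT3, 2.16 ± 0.01) were near background on every array.

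Among 8 measured endocytic genes, 6 reached the limit, but not the main receptors. LRP2, which encodes megalin, ran from 2.77 through 2.79 to 2.85, and CUBN, which encodes cubilin, from 2.09 through 2.10 to 2.12. FOLR1, the folate receptor, read 12.02 ± 0.18. The accessory genes were present as well: LRPAP1, the chaperone of megalin, read 9.70 ± 0.08, FCGRT (neonatal Fc receptor) 8.79 ± 0.41, CLCN5 (endosomal chloride-proton exchanger) 8.44 ± 0.69, OCRL 8.32 ± 0.08 and the adaptor DAB2 7.30 ± 0.22.

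Brush border peptidases were mostly near background, with 2 of 14 enzymes above the limit. DPP4 (dipeptidyl peptidase 4) read 11.81 ± 0.20 with 3 of 3 probe sets and ENPEP (aminopeptidase A) 9.72 ± 0.67 with 2 of 2. ANPEP (aminopeptidase N) read 2.94 ± 0.02, GGT1 (gamma-glutamyltransferase) 2.99 ± 0.01 and MME (neprilysin) 2.45 ± 0.38. The structural genes of the brush border were split, with 7 of 14 above the limit. The scaffold PDZK1 read 10.90 ± 0.51, its partner PDZK1IP1 12.13 ± 0.26, the actin linker EZR (ezrin) 11.65 ± 0.26, the actin regulator EPS8 11.41 ± 0.18 and PLS1 (plastin) 10.86 ± 0.14. VIL1 (villin) read 2.45 ± 0.01, with 0 of 4 probe sets above the limit.

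Tubule metabolism genes showed the same split, with 12 of 30 above the limit. GPX3, the secreted glutathione peroxidase that the proximal tubule supplies to plasma, ran from 12.22 through 12.81 to 13.67. ASS1 (arginine synthesis) read 12.02 ± 0.27, MIOX (inositol breakdown) 9.45 ± 0.40, FAH (tyrosine breakdown) 9.41 ± 0.15 and GATM (creatine synthesis) 7.85 ± 0.28. PCK1, the cytosolic enzyme that commits carbon to glucose synthesis, read 3.41 ± 0.13, while its mitochondrial form PCK2 read 8.06 ± 0.05.

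The renal transcription factor list had 8 of 20 measured genes above the limit. PAX8, a factor of renal epithelium, ran from 10.84 through 11.15 to 11.54, and all 8 of its probe sets were above the limit. IRX3 read 11.19 ± 0.47, SALL1 8.97 ± 0.20 and TFCP2L1 7.29 ± 0.66. LHX1 read 4.27 ± 0.40, close to the limit, and PAX2 read 2.58 ± 0.05. CDH16, the kidney cadherin, read 9.10 ± 0.71 and CDH6, a cadherin of the proximal tubule, 12.70 ± 0.30 with 6 of 6 probe sets. The label of these cells was thus met by general renal epithelial genes and by part of the proximal tubule list, while its defining markers megalin, cubilin, SGLT2, OAT1, OAT3 and AQP1 were near background.

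**Figure D2:**
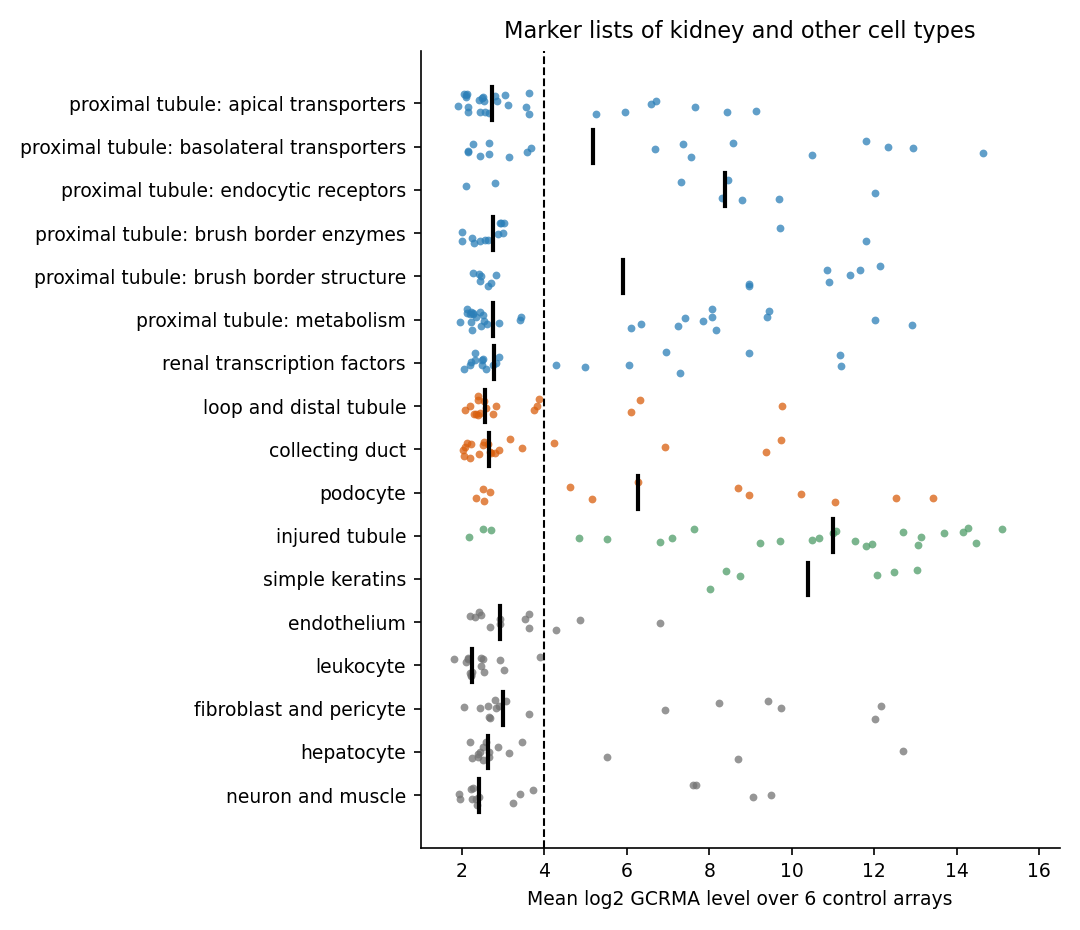
Each point is 1 gene at its mean log2 level over 6 control arrays (horizontal axis), in rows by marker list, with the list median as a black bar and the limit of 4 dashed. Proximal tubule and renal factor lists are blue, other nephron lists orange, injury and simple keratin lists green and other cell types grey; the median of the injury list is 10.99 and that of the leukocyte list 2.24.

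Markers of the rest of the nephron were mostly near background, with 16 of 51 measured genes above the limit (31.4%), and 9 of 51 with the median over probe sets. Without shared probe sets the count was 14 of 47, a share close to that of the proximal tubule genes in that setting (27 of 92). In the loop and distal tubule list 3 of 18 were above it, 6 at a limit of 3 and 1 with the median over probe sets. CLDN16, a claudin of the thick ascending limb, ran from 8.94 through 9.97 to 10.47 from its single probe set, whereas SLC12A1 (3.81 ± 0.07) and SLC12A3 (2.09 ± 0.01), the salt transporters that define those segments, were near background. In the collecting duct list 4 of 20 were above it (2 with the median over probe sets), among them CA2 (carbonic anhydrase 2, 9.75 ± 0.12), SCNN1A (a subunit of the sodium channel ENaC, 9.37 ± 0.14) and AQP3 (6.93 ± 0.67). AQP2, the water channel controlled by vasopressin, read 2.89 ± 0.09. The podocyte list, unlike the other lists of this group, had most members above the limit, 9 of 13 (69.2%, beside 54.6% of all genes). These included PTPRO (13.42 ± 0.13, from 1 of 3 probe sets) and the widely expressed actin adaptors CD2AP (12.53 ± 0.23) and ACTN4 (11.06 ± 0.34). KIRREL1 was the next highest, and TCF21, DACH1 and CLIC5 were the lowest. The podocyte genes NPHS1 (nephrin, 2.68 ± 0.02) and WT1 (2.82 ± 0.03), which are not both in the list, were near background.

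Markers of other cell types gave a check on what else the cultures could hold. Of 75 measured genes 16 were above the limit (21.3%), and 28 were above a limit of 3. The leukocyte list had 0 of 15, with the pan-leukocyte gene PTPRC at 2.93 ± 0.05. The endothelial list had 3 of 13, with VWF at 2.30 ± 0.01 and CDH5 at 2.47 ± 0.01. The hepatocyte list had 3 of 16, with ALB (albumin) at 3.13 ± 0.04 and SERPINA1 (alpha-1 antitrypsin) at 12.69 ± 0.13. The fibroblast and pericyte list had 6 of 16. Its members RGS5 (a regulator of G protein signalling, 12.17 ± 0.70), DCN (the matrix proteoglycan decorin, 12.03 ± 0.27, 4 of 7 probe sets) and LUM (lumican, 9.74 ± 0.17) were high or moderate. The fibroblast receptors PDGFRA (2.67 ± 0.03) and PDGFRB (2.64 ± 0.03) and the collagens COL1A2 (2.91 ± 0.01) and COL3A1 (2.81 ± 0.03) were near background, while COL1A1 read 8.22 ± 0.35.

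Genes known as markers of injured or regenerating tubule were mostly measured at high level. Of 25 measured genes 22 reached the limit (88.0%, beside 54.6% of all genes), with a median of 10.99. Without shared probe sets 14 of 19 did so, beside 8007 of 17100 among all genes. The highest of the list were SPP1, CD24, B2M and ANXA2. HAVCR1, which encodes the injury marker KIM-1, ran from 11.41 through 11.57 to 11.62. CLU (clusterin) read 13.06 ± 0.42, CD24 14.47 ± 0.15 with 6 of 6 probe sets, TIMP1 13.13 ± 0.05 and IGFBP7 13.69 ± 0.30. VCAM1, a marker of tubule cells that fail to repair, read 6.80 ± 0.33, and SOX9, a factor of regenerating tubule, 7.62 ± 0.75. LCN2, which encodes the injury marker NGAL, read 2.71 ± 0.15 and was near background on every array. These are levels in unexposed cultures, with no uninjured tissue measured beside them.

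Keratins of simple epithelia were all measured above the limit, 6 of 6. KRT18 ran from 12.53 through 13.15 to 13.37, KRT19 read 12.48 ± 0.24 and KRT8 12.06 ± 0.42. KRT20 varied most within this list, from 6.70 through 8.81 to 9.51. Keratins of stratified epithelia reached the limit in 1 of 13, KRT10 at 10.06 ± 0.09, while KRT5 read 1.94 ± 0.01 and KRT14 2.34 ± 0.03.

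Junction and polarity genes were broadly present, with 27 of 33 above the limit (81.8%, beside 54.6% of all genes). CLDN1, a sealing claudin, ran from 14.66 through 14.76 to 14.92 and led the 20 measured claudins, of which 10 reached the limit. CLDN2, the cation pore of the proximal tubule, read 11.08 ± 0.27, EPCAM 13.10 ± 0.21, TJP1 (ZO-1) 11.23 ± 0.14 and the desmosomal cadherin DSG2 11.58 ± 0.09. CDH1 (E-cadherin) read 7.03 ± 0.35 from 1 of 2 probe sets, and CDH2 (N-cadherin), the usual cadherin of proximal tubule cells, 9.13 ± 0.25 from 2 of 2. CLDN7 (2.01 ± 0.01), RAB25 (2.08 ± 0.01) and GRHL2 (2.33 ± 0.01), genes of distal and other epithelia, were near background.

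Of the mesenchymal genes 12 of 19 were above the limit (63.2%, beside 54.6% of all genes). VIM (vimentin) ran from 14.01 through 14.33 to 14.55. SPARC read 13.14 ± 0.13, TPM1 13.61 ± 0.24 and S100A4 9.92 ± 0.50. Of the transcription factors of this list, ZEB1 read 7.86 ± 0.08, TWIST1 7.36 ± 0.37 and SNAI1 4.42 ± 0.15, while SNAI2 (2.67 ± 0.03) and ZEB2 (2.95 ± 0.04) were near background. So were FOXC2 (2.26), TWIST2 and PRRX1, factors as well and the lowest genes of the list.

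HOX genes record the position of a cell along the body axis, and 15 of 28 measured ones reached the limit (53.6%, beside 54.6% of all genes). In the HOXB cluster 7 of 10 did, in the HOXC cluster 4 of 9 and in the HOXD cluster 4 of 8, and the single measured HOXA gene, HOXA2, read 2.78 ± 0.07. HOXB7 ran from 9.92 through 10.06 to 10.26 with 3 of 3 probe sets, HOXC6 read 9.75 ± 0.27, HOXC10 8.60 ± 0.21 and HOXD10 7.79 ± 0.31. Paralogues 12 and 13 of the clusters, which mark the hindmost body, were near background in all those measured: HOXC12 2.05 ± 0.01, HOXD12 2.50 ± 0.02, HOXB13 2.72 ± 0.25, HOXC13 3.59 ± 0.01 and HOXD13 2.77 ± 0.02. The other HOX genes near background were HOXB1 (2.76 ± 0.04), HOXD1 (2.58 ± 0.04), HOXC5 (2.95 ± 0.34), HOXB8 (2.36 ± 0.01), HOXC8 (2.29 ± 0.13), HOXD8 (3.14 ± 0.09) and HOXC11 (2.16 ± 0.01).

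**Figure D3:**
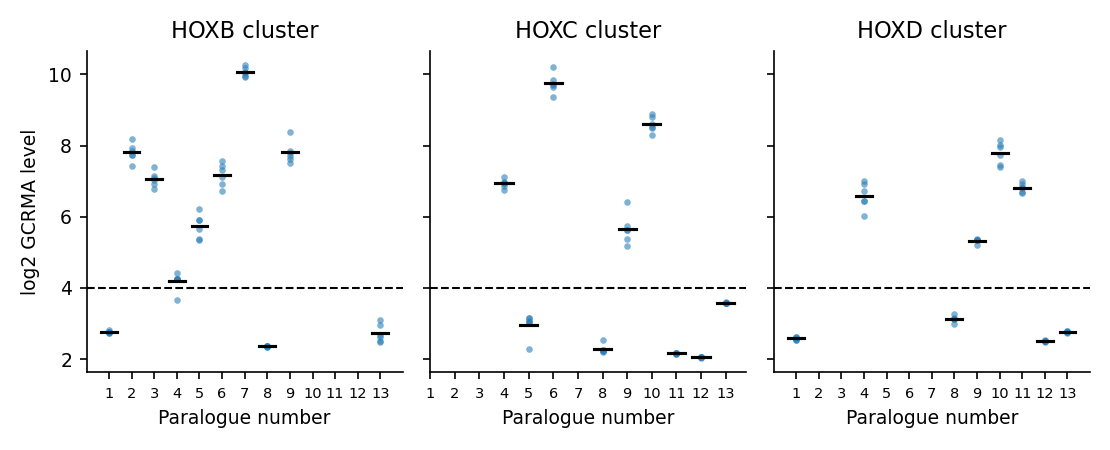
The log2 level (vertical axis) of each measured gene of the HOXB, HOXC and HOXD clusters is plotted against its paralogue number (horizontal axis), with 6 points for the control arrays, a bar for their mean and the limit of 4 dashed. Levels above the limit lie between paralogues 2 and 11, where HOXC5, HOXC11 and the 3 genes of paralogue 8 are under it.

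The lists drawn up around the medium's additions hold receptors and targets, and also ligands, kinases, chaperones and storage proteins. Of their genes 66 of 82 were measured above the limit (80.5%, beside 54.6% of all genes). No culture without these additions was measured, so a response to them was not tested. For EGF, 14 of 16 genes were. EGFR, its receptor, ran from 11.75 through 11.77 to 11.89, and the feedback phosphatase DUSP6, induced by ERK signalling, from 12.60 through 13.08 to 13.45. The ligands TGFA (9.81 ± 0.19), EREG (8.99 ± 0.52) and HBEGF (6.94 ± 0.84), which act on the same receptor, were present too. The receptor gene ERBB4 (2.40) and the ligand gene BTC, the lowest of the list, were near background, and ERBB3 read 4.60 ± 0.22. EGF itself, which is not in the list, read 3.76 ± 0.43. For hydrocortisone, 10 of 13 genes were above the limit. The receptor gene NR3C1 read 10.15 ± 0.27 with 5 of 5 probe sets. Its known targets SGK1 (13.85 ± 0.16), FKBP5 (12.14 ± 0.16) and TSC22D3 (10.84 ± 0.71) were high or very high, whereas the target ZBTB16 (2.39 ± 0.01) and the genes of the cortisol-converting enzymes HSD11B1 (2.30 ± 0.01) and HSD11B2 (2.20 ± 0.01) were near background. For insulin, 12 of 16 genes were above the limit, with IRS2 at 11.86 ± 0.14, IGF1R at 8.09 ± 0.47 and the insulin receptor INSR at 5.96 ± 0.16.

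For transferrin and iron, 13 of 15 genes were above the limit. TFRC, which takes up iron-loaded transferrin, ran from 12.07 through 12.76 to 12.95. NCOA4, which delivers ferritin for breakdown, read 12.74 ± 0.20, the iron exporter SLC40A1 7.71 ± 0.40 and transferrin's own gene TF 3.08 ± 0.05. Of 22 measured selenoprotein and selenium genes 17 were above the limit. GPX4, which protects membrane lipids, read 13.42 ± 0.11, GPX1 12.78 ± 0.15 and TXNRD1 11.96 ± 0.11. SELENOP, the plasma selenium carrier, read 2.64 ± 0.03.

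Energy genes were mostly above the limit, 75 of 86 (87.2%, beside 54.6% of all genes). All 15 measured genes of the citric acid cycle were above it, led by the malate dehydrogenase gene MDH2 (12.94 ± 0.06), CS (citrate synthase, 12.47 ± 0.11) and DLD (dihydrolipoamide dehydrogenase, 11.88 ± 0.10). All 32 measured nuclear genes of complex I were above it, as were 17 of 18 ATP synthase genes, whose median was 13.17. Without shared probe sets these counts were 19 of 26 and 8 of 14. In glycolysis 18 of 22 genes were, with LDHA at 14.73 ± 0.05, ENO1 at 14.68 ± 0.11, PGK1 at 14.02 ± 0.11 and ALDOA at 13.88 ± 0.28. In gluconeogenesis 8 of 13 were (61.5%, beside 54.6% of all genes), led by MDH1 (13.16), MDH2 and GOT1. Its phosphatase genes were split. G6PC3 came next and was a high gene, while G6PC1 (2.60 ± 0.01), G6PC2 (1.79), FBP1 (2.27 ± 0.39) and FBP2 were near background. Fatty acid oxidation had 18 of 20, including HADHA (11.82 ± 0.05) and ACADM (10.67 ± 0.31), with the regulators PPARGC1A at 8.65 ± 0.41 and PPARA at 8.03 ± 0.59. Cholesterol synthesis had 17 of 17, among them MSMO1 (13.32 ± 0.23), FDPS (13.14 ± 0.10) and SQLE (12.51 ± 0.15).

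Genes that handle foreign compounds were near the background share, with 45 of 87 above the limit (51.7%). Cytochromes P450 were few: 9 of 47 of the family reached the limit and none was a high gene. The count was 15 at a limit of 3 and 5 at a limit of 6. CYP1B1, which oxidises polycyclic compounds and steroids, ran from 8.08 through 9.01 to 9.41 and CYP2R1, a vitamin D hydroxylase, read 8.35 ± 0.25. CYP1A1 (2.10 ± 0.01), CYP3A4 (2.58 ± 0.01) and CYP2E1 (2.66 ± 0.02) were near background, with the aryl hydrocarbon receptor gene AHR at 9.14 ± 0.13. Other oxidoreductases had 14 of 24 above the limit (58.3%) and conjugation enzymes 16 of 28 (57.1%), beside 54.6% of all genes. FMO1 (2.05 ± 0.01), CES1 (2.10 ± 0.02), NAT2 (2.00 ± 0.01) and UGT1A1 (2.10 ± 0.01), enzymes of liver drug metabolism, were near background. NQO1, the quinone reductase, read 11.12 ± 0.30, EPHX1 (epoxide hydrolase) 11.82 ± 0.24, NNMT (nicotinamide methyltransferase) 13.24 ± 0.61, MGST1 13.38 ± 0.08, GSTO1 12.41 ± 0.10 and GSTP1 12.27 ± 0.33. SULT1A1, a phenol sulfotransferase, read 10.23 ± 0.12.

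Of the efflux pumps 7 of 12 were above the limit (58.3%, beside 54.6% of all genes). ABCC4 (MRP4) read 11.14 ± 0.24 and ABCB1 (P-glycoprotein) ran from 9.18 through 9.74 to 10.07. ABCC2 (MRP2, 2.26 ± 0.01) and ABCG2 (2.18 ± 0.01) and the cation exporter SLC47A1 (MATE1, 2.11 ± 0.01) were near background.

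Metallothioneins, small proteins that bind zinc, copper and cadmium, had 7 of 9 measured genes above the limit. MT2A ran from 14.23 through 14.55 to 14.63, MT1E from 13.55 through 13.80 to 13.81 and MT1X from 13.43 through 13.69 to 13.81. MT1F read 13.11 ± 0.08, MT1H 12.60 ± 0.13, MT1G 11.49 ± 0.16 and MT1M 9.59 ± 0.30. MT3, the form of neurons, read 3.68 ± 0.02, and MT4, the form of stratified epithelia, 2.28 ± 0.01. The MT1 genes are close copies, and 1 of the 4 metallothionein genes measured without shared probe sets was above the limit, so which MT1 copies gave the signal is uncertain. The zinc exporter SLC30A1 read 12.23 ± 0.20 and MTF1, the factor that senses zinc and binds metal response elements, 7.89 ± 0.08 with 3 of 3 probe sets.

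The promoters of a pair of these genes at very high level and of MT4 lie within one cluster on chromosome 16 and are shown because all carry copies of the metal response element core. The 250 bases before the RefSeq start site (GRCh38.p14, plus strand) follow, with matches to the core TGCNCNC on either strand in capitals. Overlapping matches are counted separately.

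MT2A (chr16:56608334-56608583): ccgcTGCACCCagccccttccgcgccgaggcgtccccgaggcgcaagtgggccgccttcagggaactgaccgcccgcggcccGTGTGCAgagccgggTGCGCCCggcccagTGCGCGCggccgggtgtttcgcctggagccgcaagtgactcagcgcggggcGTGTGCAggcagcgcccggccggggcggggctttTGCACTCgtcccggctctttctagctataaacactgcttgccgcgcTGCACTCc
MT1X (chr16:56682220-56682469): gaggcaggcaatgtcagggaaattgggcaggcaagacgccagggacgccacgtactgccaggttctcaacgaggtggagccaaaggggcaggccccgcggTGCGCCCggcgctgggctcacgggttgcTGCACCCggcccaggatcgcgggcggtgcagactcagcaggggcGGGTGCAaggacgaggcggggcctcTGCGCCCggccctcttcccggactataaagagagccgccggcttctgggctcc
MT4 (chr16:56564823-56565072): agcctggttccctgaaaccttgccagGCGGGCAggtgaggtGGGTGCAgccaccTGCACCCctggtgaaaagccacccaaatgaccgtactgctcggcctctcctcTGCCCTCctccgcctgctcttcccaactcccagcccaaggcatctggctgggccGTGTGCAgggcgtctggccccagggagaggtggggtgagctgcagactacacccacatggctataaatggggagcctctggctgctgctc

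MT2A held 7 matches, MT1X 4 and MT4 5, and MT1H, another high gene of the cluster, held 8. At least 4 matches were found in 1.90% of all 15381 promoters. MT4, the near-background gene, thus lay within the range of matches of the others. The ratio of observed to expected CpG was 0.962 for MT2A, 0.776 for MT1X, 0.720 for MT1H and 0.261 for MT4. A match is a string of letters and not a measured binding site.

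Stress-response genes were measured above the limit in 67 of 69 cases (97.1%, beside 54.6% of all genes). All 22 measured glutathione and NRF2 genes and all 17 genes of the cytosolic chaperone list were above it. So were all 19 genes of the endoplasmic reticulum list, which holds stress regulators beside chaperones. PRDX1 (peroxiredoxin, 14.26 ± 0.11), TXN (thioredoxin, 13.96 ± 0.16) and SOD1 (13.35 ± 0.18) led the redox genes, and NFE2L2, which encodes NRF2, read 11.58 ± 0.30. HSP90AA1 (14.61 ± 0.11), HSPD1 (14.54 ± 0.04) and HSPB1 (14.50 ± 0.08) led the cytosolic chaperone list, although the HSPD1 product is a mitochondrial chaperone. CRYAB, a small heat shock protein, read 12.00 ± 0.19 as the single member of 14 crystallin genes above the limit. Of the 19 endoplasmic reticulum genes 10 were high, among them the chaperone gene HSPA5 (BiP, 12.98 ± 0.26) and the stress factor ATF4 (12.69 ± 0.20), while DDIT3 (CHOP, 8.84 ± 0.62) and XBP1 (8.59 ± 0.15) were moderate.

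Growth genes were present almost without exception, in 117 of 124 (94.4%, beside 54.6% of all genes). All 26 mitosis genes, all 25 replication genes and all 23 genes of the G1/S step and E2F were above the limit. CDK1 ran from 12.28 through 12.48 to 12.78, MKI67, the proliferation marker, from 11.09 through 11.70 to 12.13, and PCNA, the clamp of replication, from 13.51 through 13.67 to 13.80. MYC read 12.52 ± 0.23, with MYCN (3.45 ± 0.12) and MYCL (3.31 ± 0.04) near background.

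Of the genes of the RB pathway, CDKN2A, which encodes the inhibitor p16, ran from 12.32 through 12.53 to 12.71 with 3 of 3 probe sets, and RB1 read 10.98 ± 0.17. Its neighbour CDKN2B read 4.10 ± 0.55, close to the limit. In the p53 pathway 21 of 22 genes were above the limit, with TP73, a relative of p53, near background (2.68 ± 0.04). The p53 target CDKN1A (p21) read 9.57 ± 0.34, the regulators MDM2 and MDM4 8.77 ± 0.07 and 10.06 ± 0.20, and SFN, a 14-3-3 protein, 12.01 ± 0.25. TERT, the catalytic subunit of telomerase, read 2.77 ± 0.06 and was near background in both of its probe sets. All 22 nucleotide excision repair genes, which remove bulky DNA adducts, were above the limit, from ERCC4 at 5.81 ± 0.33 to RAD23B at 13.05 ± 0.14.

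Of the matrix genes 52 of 80 were above the limit (65.0%, beside 54.6% of all genes). Of the laminins and basement membrane genes 12 of 13 were, led by LAMB1 (12.53 ± 0.28) and LAMC1 (11.27 ± 0.23). The collagen IV chains COL4A1 (12.60 ± 0.17) and COL4A2 (12.70 ± 0.31) were high. COL4A3 (3.13 ± 0.86) and COL4A4 (3.80 ± 0.58), chains of the mature glomerular membrane, were near background. The integrin subunits ITGAV (13.77 ± 0.08) and ITGB1 (13.67 ± 0.07), receptors for fibronectin and osteopontin, were very high.

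Of the immune genes 31 of 50 were above the limit (62.0%, beside 54.6% of all genes). The counts were 16 of 23 in antigen presentation (69.6%) and 15 of 27 among cytokines and chemokines (55.6%). B2M, the light chain of class I molecules, read 14.29 ± 0.18, HLA-B 12.38 ± 0.17 and HLA-C 12.07 ± 0.22. The class II genes HLA-DRA (2.09 ± 0.01) and HLA-DRB1 (2.16 ± 0.01) and their activator CIITA (2.32 ± 0.01) were near background. CXCL8 (interleukin 8) ran from 12.53 through 12.71 to 12.88 and IL18 read 10.66 ± 0.23, while IL6 spread from 2.23 through 4.44 to 5.85 across the limit. All 16 measured interferon genes were near background, none above 2.55. DEFB1, the defensin of renal epithelium, read 10.84 ± 0.32 as the single one of 17 defensin genes above the limit.

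Receptors and signalling genes came close to the background share, with 74 of 130 above the limit (56.9%). The renal hormone receptor list had 13 of 32. PTH1R, the parathyroid hormone receptor, read 3.20 ± 0.15 and AGTR1, the angiotensin receptor, 2.51 ± 0.01. PTGER2, a prostaglandin E2 receptor, read 10.76 ± 0.49, the adenosine receptor ADORA1 8.21 ± 0.24 and KL, which encodes the FGF23 co-receptor klotho, 7.94 ± 0.73. TGF-beta and BMP receptor genes had 20 of 24 above the limit, with TGFBR2 at 11.08 ± 0.02. MET, the receptor of hepatocyte growth factor, read 11.82 ± 0.10, NOTCH2 11.66 ± 0.10 and its ligand JAG1 10.90 ± 0.70. Of the cilium genes 19 of 23 were above the limit, including the transport protein genes IFT57 (10.32 ± 0.11) and IFT20 (9.95 ± 0.11).

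The 6 arrays resembled each other closely, with Pearson's r across genes from 0.9922 to 0.9976 in the 15 pairs. The SD within a time, pooled over both times, had a median of 0.176 over all genes above the limit. It fell from 0.235 in low genes to 0.187 in moderate, 0.135 in high and 0.0833 in very high genes, and was 0.0146 near background, where values are compressed. Deviations from the mean of each time were shared between arrays of the same replicate number at 24 h and 48 h, with r from 0.58 to 0.59 in 3 pairs. The 6 pairs of other numbers at the other time gave r from -0.39 to -0.16. Deviations from the mean of a time cancel out within that time. Negative values in these pairs thus follow from the positive ones and are no separate contrast. These arrays share the genes and the normalisation.

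The genes with the largest spread within a time, among those with a mean of at least 6, were led by PLAT, which encodes tissue plasminogen activator. PLAT read 6.53, 6.31 and 8.43 in replicates 1 to 3 at 24 h and 4.80, 4.44 and 7.45 at 48 h. FOSL1, a subunit of the transcription factor AP-1, read 6.59, 6.36 and 7.94 at 24 h and 5.24, 3.87 and 6.41 at 48 h. In both genes replicate 3 was the highest at each time. BDNF, a neurotrophin, read 6.57, 6.67 and 8.19 at 24 h and 5.63, 6.18 and 8.22 at 48 h. IFI44L, an interferon-stimulated gene, ran the other way, with 8.04, 8.73 and 7.17 at 24 h and 9.38, 9.53 and 7.13 at 48 h.

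Replicate 3 was the highest array at both times in 8 of these 10 genes and the lowest at both times in 1. The other members were CCNA1 (SD within time 1.32), RGS20 (1.30), SLN (1.20), TXNIP (1.07), ZBED2 (1.03) and UCA1 (0.99). Among the 25 most variable genes it was highest at both times in 11 and lowest at both in 11. The labels do not say what the replicate number stands for.

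**Figure D4:**
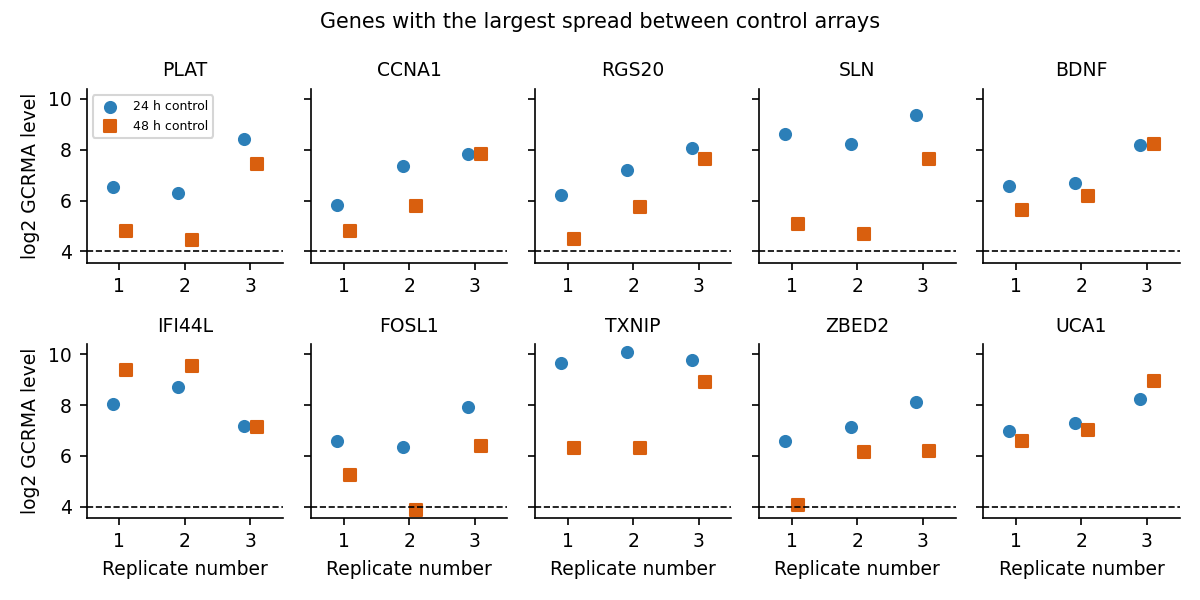
Each panel shows 1 of the 10 genes with the largest spread within a time, with the log2 level on the vertical axis and the replicate number on the horizontal axis; circles are control arrays at 24 h and squares control arrays at 48 h, with the limit of 4 dashed. Replicate 3 is highest at both times in 8 panels, and lowest at both in that of IFI44L.

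The level classes differed in features of sequence that played no part in defining them. A promoter from 250 bases before to 50 after the first listed start was found for 15381 of the 19775 genes (77.8%). A CpG-rich promoter, with a ratio of observed to expected CpG of at least 0.6, was present in 40.8% of near-background genes, 75.5% of low, 86.6% of moderate, 89.2% of high and 91.5% of very high genes, against 66.5% of all. In olfactory receptor genes it was 5.0%. A TATA box, searched as TATAAA on the plus strand from 40 to 16 bases before the start, was found in 5.11% of near-background genes, 0.954% of moderate genes and 4.41% of very high genes, beside 2.97% of all. The very high share rests on 12 genes and was 1.96% without shared probe sets. The ETS letters CCGGAA, on either strand, were found in 11.9% of near-background and 39.3% of very high genes, and in 58.8% of ribosomal protein genes. Genes near background had fewer promoters in the table (71.7%) than high genes (86.0%), so the classes are not equally covered.

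**Figure D5:**
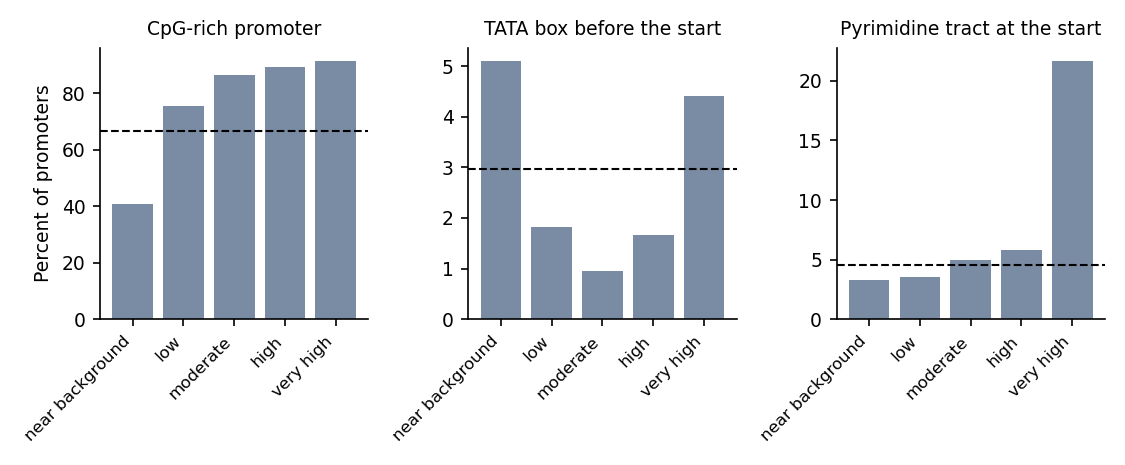
Bars give the percent of promoters (vertical axis) with a CpG-rich sequence, a TATA box before the start or a pyrimidine tract at the start in each of the 5 level classes (horizontal axis), and the dashed line gives all genes. The CpG-rich share climbs from 40.8% to 91.5%, the TATA share of very high genes rests on 12 genes, and the tract reaches 21.7% in very high genes.

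Gene length followed the classes in another way. The median span from start to end of the gene was 17.5 kb near background, 25.5 kb in low, 34.7 kb in moderate, 31.7 kb in high and 12.0 kb in very high genes. Very high genes were thus the shortest class and moderate genes the longest.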

How the data were processed

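Total RNA of HK-2 cells was labelled and hybridised to whole-genome oligonucleotide arrays, 12 in the series. Per the submitters' processing notes the authors normalised them with GCRMA, whose version is not given in the sources used here. The deposited values of the 54675 probe sets are log2 intensities, running from 0.82 to 16.25 on the 6 control arrays. GCRMA subtracts an estimate of nonspecific binding from probe sequence, which compresses low values. For arrays, their number limits the precision.

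Genes were named through GEO's platform annotation: the 41097 probe sets with a single symbol entered the work, while 1801 carried several symbols and 11777 were not listed. Symbols were updated through the GRCh38.p14 RefSeq annotation, which held 41043 of them. Each gene is its probe set with the highest mean over the 6 control arrays, with the SD over those arrays. Python 3.11.15 with pandas 2.3.3 and numpy 2.4.6 was used, and the code was tested on simulated data. No groups were compared, so there are no tests and no p-values.

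The 56 gene lists, of 1171 symbols (1067 measured), were written from general knowledge, and 35 families were recognised from the form of the symbol, leaving out antisense transcripts and numbered pseudogenes. The members and lists were chosen with earlier results of these data known. Named genes were the 20 highest, the 20 highest outside translation, the 10 with the largest SD within a time, the highest genes of a family or of the background families, and members of the lists. RPLP2, RPL36A, COX3 and ND6 were chosen after their values were seen. Promoter sequences came from RefSeq. A further 14 settings were tried: limits of 3, 5 and 6, a limit at the 95th percentile of the background families, every array above the limit, the median over probe sets, no shared probe sets, quantile normalisation, and leaving out each of 6 arrays.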

Additional observations from a re-analysis of the deposited data

Results flagged for a closer look

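The 6 control arrays were examined for a single array apart from the other 5, in each of 56 list medians and in each named gene above the limit. Dixon's criterion at the 95% level marks about 1 in 20 such sets by chance. It marked 3 list medians and 6 of 222 genes, all at 48 h, from replicates 2 and 3.

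The median of the proximal tubule metabolism list was 3.01 in replicate 3 at 48 h, against 2.73 to 2.77 in the others, all under the limit of 4. The endothelial list median was 3.63 in that array, against 2.84 to 2.94. In the EGF receptor list the median was 8.35 in replicate 2 at 48 h, against 8.72 to 8.93.

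In the same replicate 2, AHR read 9.40, against 9.03 to 9.13, and HSPB1 read 14.34, against 14.50 to 14.59. In replicate 3 at 48 h, OR1J2 read 4.34, against 4.07 to 4.17. SLC22A5 was low there at 5.67, against 5.96 to 6.11, SNAI1 was low at 4.12, against 4.46 to 4.53, and NEFL was low at 6.42, against 7.62 to 8.32.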

How the results depend on the processing

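Of 112 counts, shares and spreads, none moved by over 1.5 times or beyond its interval when each of the 6 arrays was left out in turn, in 672 values, nor under quantile normalisation or when every array had to reach the limit. With the limit at 3, low genes numbered 3791, markers of other cell types above it 28, background family genes 9, and 37.7% of near-background promoters were CpG-rich. A limit at the 95th percentile of the background families gave 26, 7 and 38.2% for the last 3 of these. With the limit at 5, 1 background family gene was above it and the CpG-rich share was 43.0%. With the limit at 6, low genes numbered 1064, background family genes 0 and the share was 45.3%. With the median over probe sets, high genes numbered 1461, very high genes 177 and other nephron markers 9, the CpG-rich share near background was 46.4% and the TATA share 4.58%. Without shared probe sets 8007 of 17100 genes were above the limit. High genes then numbered 1586 and very high genes 123, proximal tubule genes 27 of 92 and injury genes 14 of 19. The shares near background were 45.8% CpG-rich and 4.52% with a TATA box, and those of very high genes 1.96% with a TATA box and 14.7% with a tract. Ribosomal protein genes were then 25 of 36 and metallothionein genes 1 of 4. Fewer genes are measured in that setting, and the part of sharing in the changes was not tested. Of the 91 counts of single lists and families, 32 moved without shared probe sets, 13 at the limit of 3, 10 at the 95th percentile, 4 at the limit of 5 and 6 each at the limit of 6 and with the median over probe sets. Of all genes, 761 genes lie within 0.5 of the limit. No paired analysis was possible because the results come from no test.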

Other observations

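A few tissue-restricted genes that belong to none of the nephron lists were above the limit in these cultures. In the neuron and muscle list 4 of 15 were (26.7%, beside 54.6% of all genes), and the list median was 2.42. SYT1, a calcium sensor of synaptic vesicles, read 9.49 ± 0.35, MBP, a myelin protein, 9.07 ± 0.20, SNAP25, a partner in vesicle fusion, 7.60 ± 0.45, and NEFL, a neurofilament, 7.68 ± 0.68, while GAD1 read 3.23 ± 0.09. In the liver list CPS1, the first enzyme of the urea cycle, read 8.70 ± 0.42 and the fibrinogen chain FGB 5.53 ± 0.54, while the partner chains FGA and FGG read 2.51 and 2.43. UGT8, which makes the galactolipids of myelin and kidney, read 10.41 ± 0.33. Of the protocadherins 3 of 34 were above the limit, led by PCDH7 at 9.99 ± 0.31.

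Probe sets without a single gene symbol were left out of all counts above. Of 13578 such probe sets, 2898 were at or above the limit.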
